A study of Mus musculus with 14 samples.

Results

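The genes of sterol and fatty acid synthesis were followed through the RNA-seq profiles of EpH4 cells, which derive from the epithelium of the mouse mammary gland, and of EpRas cells, which are EpH4 cells transformed with H-Ras. The members were chosen by pathway membership, as a list of 34 gene symbols drawn up with earlier results of these FPKM values known, and 33 of them were found in both tables of 23284 genes. They fall into 17 genes of the mevalonate and sterol pathway, 6 regulators and transport genes, and 10 genes of fatty acid synthesis, elongation and desaturation. Msmo1 is lacking under that symbol, and its older symbol Sc4mol is given below as a non-member. The FPKM (fragments counted on a gene, scaled to exon length and library size) served both for drawing up the list and for the values below, and which contrast led to it is not recorded. The knockdown contrasts were therefore taken as used for the choice and are described without a test, and the tests of line and TGF-β are not independent support for the list.

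The series holds 14 RNA-seq libraries. Untransfected cells gave 8, namely 2 each from EpH4 and EpRas cells left untreated or stimulated with 1 ng/ml TGF-β3 for 48 h. Transfected EpRas cells gave 6, 1 for each siRNA with and without TGF-β. Their siRNAs were a control (siNC), siEtv4_1 combined with siEtv5_1 (here pair 1) and siEtv4_2 combined with siEtv5_2 (here pair 2), which target the ETS family factors Etv4 and Etv5. EpH4 cells were grown in 10% and EpRas cells in 4% fetal bovine serum, so a difference between the lines and a difference in serum, which carries lipoproteins, cannot be told apart. EpRas is 1 derived line, the study calls the untransfected replicates biological without saying what was kept separate, and p-values measure the spread between these libraries only. In bulk RNA, fewer cells of a kind and less RNA per cell cannot be told apart.

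Cells build cholesterol from acetyl-CoA through mevalonate, farnesyl diphosphate, squalene and lanosterol, and they build fatty acids from acetyl-CoA and malonyl-CoA. Most enzymes of both routes are transcribed under the sterol regulatory element-binding proteins, of which SREBP-2 (Srebf2) acts mainly on sterol genes and SREBP-1 (Srebf1) mainly on fatty acid genes. Scap carries these precursors from the endoplasmic reticulum to the Golgi for cleavage when sterols are scarce, and the Insig proteins hold Scap back when sterols are plentiful. In mammary epithelium both routes are best known for supplying milk fat during lactation.

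Promoter sequence was read from RefSeq windows on GRCm38.p6 (mm10), from 250 bases before to 50 bases after each annotated start, which held 35 windows for 26 of the 33 members. The 4 sequences here are the 250 bases before the start, 5′ to 3′ on the strand of the gene, for genes whose transcripts were higher in the knockdown libraries. Capitals mark CCAAT or its reverse complement ATTGG, and the SRE-like letters TCACNCCAC, searched on both strands, which did not overlap each other.
Hmgcs1, chr13:119690101-119690350, plus strand: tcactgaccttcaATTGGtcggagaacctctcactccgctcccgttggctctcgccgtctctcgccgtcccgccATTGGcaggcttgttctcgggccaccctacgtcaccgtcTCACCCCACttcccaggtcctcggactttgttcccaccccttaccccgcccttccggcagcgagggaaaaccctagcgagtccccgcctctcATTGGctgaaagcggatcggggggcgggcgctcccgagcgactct
Lss, chr10:76531355-76531604, plus strand: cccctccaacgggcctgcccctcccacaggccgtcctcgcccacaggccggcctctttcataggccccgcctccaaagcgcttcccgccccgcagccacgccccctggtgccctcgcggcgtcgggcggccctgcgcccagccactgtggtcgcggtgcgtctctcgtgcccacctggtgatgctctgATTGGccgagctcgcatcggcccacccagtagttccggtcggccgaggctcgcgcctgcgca
Srebf2, chr15:82147019-82147268, plus strand: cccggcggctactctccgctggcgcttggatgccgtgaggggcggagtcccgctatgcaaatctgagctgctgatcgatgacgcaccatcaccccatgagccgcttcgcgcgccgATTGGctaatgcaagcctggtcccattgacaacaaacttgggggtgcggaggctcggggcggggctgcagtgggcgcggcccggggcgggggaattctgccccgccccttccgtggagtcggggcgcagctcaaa
Acat2, chr17:12960726-12960975, minus strand: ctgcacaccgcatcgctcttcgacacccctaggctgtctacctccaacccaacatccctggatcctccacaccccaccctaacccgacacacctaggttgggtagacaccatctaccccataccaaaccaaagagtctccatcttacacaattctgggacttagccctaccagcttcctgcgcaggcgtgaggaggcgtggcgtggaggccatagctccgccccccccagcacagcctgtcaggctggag

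The first 3 of these hold CCAAT letters in the stretch shown, Hmgcs1 at 3 places, and Acat2 holds none of either motif. CCAAT was found in 13 of the 17 windows of sterol genes (13 of 14 genes), in 5 of 10 windows of regulators (4 of 5 genes) and in 4 of 8 windows of fatty acid genes (4 of 7 genes), beside 37.4% of all 32851 windows. The SRE-like letters were found in 1 member window, that of Hmgcs1, where they begin at base -137 from the start, beside 1.24% of all windows. The ETS-like letters CCGGAAGT were found in 1 member window, of Insig2, beside 3.89% of all windows. A match is a run of letters and no measured binding site.

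Against siNC, most of the sterol genes were higher in the Etv4/Etv5 knockdown libraries. The check of the labels came first. Etv4 stood at 57.4 FPKM in the siNC library, 11.6 with pair 1 and 27.9 with pair 2, and under TGF-β at 64.3, 12.6 and 18.9. Etv5 stood at 8.85, 1.61 and 1.26 FPKM without TGF-β and at 5.34, 1.24 and 1.20 with it. Both targets were lower in all 4 knockdown libraries, and Etv4 was lower with pair 1 than with pair 2. The same siNC library of each TGF-β state serves both pairs, so the pairs are given side by side and their overlap is not a result.

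**Figure D1:**
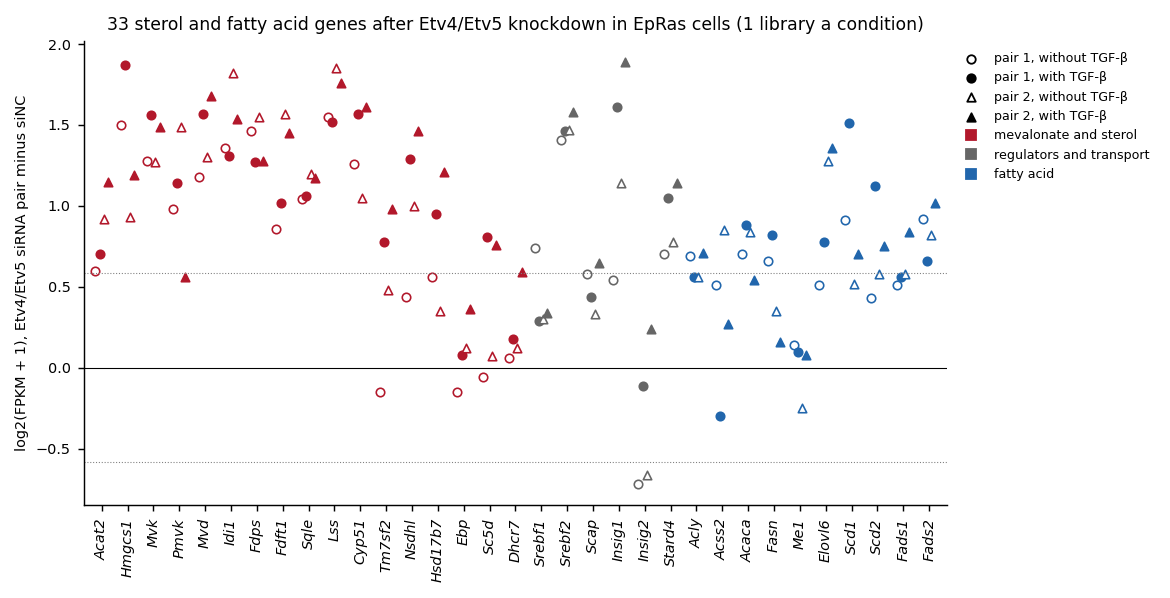
Difference of log2(FPKM + 1) between each Etv4/Etv5 siRNA library and the siNC library of the same TGF-β state, for the 33 members in pathway order, with 1 point for each pair and state and dotted lines at 1.5-fold. The members from Acat2 to Cyp51 lie between 0.56 and 1.87, and Insig2 lies at -0.72 and -0.66 without TGF-β.

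A difference of at least 1.5-fold on the log2(FPKM + 1) scale was counted, with no test since each condition has 1 library. With pair 1 and no TGF-β, 19 of 33 members were past 1.5-fold higher and 1 past 1.5-fold lower, beside 12.1% and 13.2% of all 9094 genes that reached 5 FPKM. With pair 1 and TGF-β, 24 were higher and 0 lower, beside 12.1% and 13.1% of all genes. Pair 2 gave 19 higher and 1 lower without TGF-β, beside 12.9% and 13.8%, and 25 higher and 0 lower with TGF-β, beside 10.7% and 11.0%. Over both TGF-β states, whose siNC libraries differ, 17 members were past 1.5-fold higher in both with pair 1 (4.53% of all genes) and 16 with pair 2 (4.09%). Since these contrasts were taken as used for the choice of members, nothing is read from these shares.

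The early and middle steps of the sterol pathway showed the larger differences by their medians. Lss, which closes squalene epoxide to lanosterol (chr10:76531627-76562226), stood at 16.6 FPKM in siNC, 50.4 with pair 1 and 62.5 with pair 2, and under TGF-β at 13.1, 39.7 and 47.0. The lowest of the 4 knockdown libraries was thus over 2-fold the higher siNC library. Their ratios to siNC were 3.04 and 3.02 with pair 1 and 3.77 and 3.58 with pair 2, without and with TGF-β. The Cuffdiff intervals of siNC, 8.05 to 25.1 and 6.11 to 20.2 FPKM, ended below the lower ends of those of the knockdown libraries of the same state, the lowest of which was 21.1 FPKM under TGF-β. Not all sterol genes were so parted. Without TGF-β the intervals of siNC overlapped those of both pairs for every sterol member but Lss, Hmgcs1 and Idi1. They overlapped those of pair 2 for Hmgcs1 and those of pair 1 for Idi1. For Fdft1 the siNC interval ran from 0 to 48.8 FPKM.

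Hmgcs1 makes HMG-CoA from acetoacetyl-CoA (chr13:119690462-119708077). It stood at 16.8, 49.5 and 33.0 FPKM without TGF-β and at 14.8, 56.5 and 34.9 with it, in the order siNC, pair 1, pair 2. Both pairs were above siNC, and pair 1 was above pair 2, by 0.57 on the log2(FPKM + 1) scale without and 0.68 with TGF-β. Acat2, which joins acetyl-CoA units in the first step, showed the smaller ratios of 1.54 and 1.66 with pair 1 and 1.92 and 2.28 with pair 2.

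Mvk, Pmvk and Mvd carry mevalonate to isopentenyl diphosphate by 2 phosphorylations and a decarboxylation. Mvk stood at 29.6, 73.2 and 72.9 FPKM without TGF-β and at 28.6, 86.3 and 82.2 with it. Mvd stood at 31.8, 73.6 and 80.1 FPKM and, under TGF-β, at 26.0, 79.1 and 85.4. For both genes the pairs were close to each other and over 2-fold above siNC. Pmvk differed more between the pairs, with 37.7, 75.2 and 107 FPKM without TGF-β and 41.5, 92.8 and 61.4 with it.

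Idi1 and Fdps make the isoprenoid units and farnesyl diphosphate, and Fdft1 and Sqle commit them to squalene and its epoxide. Fdps, the most abundant sterol member, stood at 160, 440 and 469 FPKM without TGF-β and at 176, 426 and 431 with it. Idi1, the least abundant one in these libraries, stood at 2.22, 7.29 and 10.4 FPKM without TGF-β and at 1.65, 5.57 and 6.70 with it. The FPKM ratios to siNC of Idi1 were the largest of the sterol arm, at 3.28 and 3.36 with pair 1 and 4.66 and 4.05 with pair 2, except that Hmgcs1 stood above it with pair 1 under TGF-β (3.82). Fdft1 was higher with pair 2 (53.0 and 44.3 FPKM) than with pair 1 (32.0 and 32.5 FPKM), with siNC at 17.2 and 15.6. Sqle stood at 58.1, 120 and 135 FPKM without TGF-β and at 63.1, 133 and 143 with it. Cyp51, which demethylates lanosterol, stood at 20.4, 50.1 and 43.4 FPKM and, under TGF-β, at 17.2, 53.0 and 54.5.

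By their medians, the steps after Cyp51 lay nearer to siNC than those before it, a split made after the values were seen. Of the 11 members from Acat2 to Cyp51, 11 were past 1.5-fold higher with pair 1 without TGF-β, 11 with TGF-β, 11 with pair 2 without TGF-β and 10 with TGF-β, with median differences of 1.26, 1.31, 1.30 and 1.45 (log2). Of the 6 later members, 0, 4, 1 and 5 were past 1.5-fold higher in the same order, with medians of 0.00, 0.80, 0.24 and 0.87. Under TGF-β the ranges overlapped, at 0.08 to 1.29 (pair 1) and 0.36 to 1.46 (pair 2) after Cyp51 and 0.70 to 1.87 and 0.56 to 1.76 up to it, and with pair 2 without TGF-β Nsdhl reached 1.00 and Acat2 stood at 0.92. Over all genes the medians lay between 0.01 and 0.03.

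Among these later members, Ebp, the sterol isomerase, stood at 22.8, 20.5 and 24.9 FPKM without TGF-β and at 16.1, 17.0 and 20.9 with it. Dhcr7, the last reductase of the route, stood at 37.7, 39.4 and 41.1 FPKM and, under TGF-β, at 25.4, 29.0 and 38.9. The libraries without TGF-β lay close together for both genes. Sc5d, a sterol desaturase, stood at 21.6, 20.7 and 22.8 FPKM without TGF-β, where the 3 libraries were alike, and at 15.0, 27.1 and 26.0 with it, where both pairs were above siNC. Nsdhl, which acts in removing the methyl groups of carbon 4, stood above siNC with both pairs in both states, at 21.3, 29.1 and 43.6 FPKM without and 18.5, 46.8 and 52.6 with TGF-β. Hsd17b7, which acts in the same removal, stood at 10.6 FPKM in siNC, with ratios of 1.52 and 1.30 for the pairs, and under TGF-β at 10.4, 21.1 and 25.4 FPKM. Tm7sf2, a sterol reductase, stood at 9.48, 8.45 and 13.6 FPKM and, under TGF-β, at 5.81, 10.7 and 12.4. Sc4mol, the non-member that the RefSeq synonyms pair with Msmo1, stood at 55.7, 69.6 and 82.4 FPKM without TGF-β and at 28.6, 111 and 106 with it. For Sc4mol and each of these later members the siNC library itself was lower with TGF-β than without it. The differences were -0.62 for Tm7sf2, -0.55 for Dhcr7, -0.50 for Sc5d, -0.48 for Ebp, -0.19 for Nsdhl and -0.02 for Hsd17b7 (log2).

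Among the regulators, Srebf2 (chr15:82147269-82204960) differed most evenly. It stood at 36.6, 98.9 and 103 FPKM without TGF-β and at 35.4, 99.1 and 107 with it, so all 4 ratios lay between 2.70 and 3.04. Its Cuffdiff intervals overlapped except for pair 2 under TGF-β, as those of siNC reached up to 53.7 and 51.9 FPKM, without and with TGF-β, and those of the knockdown libraries began at 49.6 to 53.6. Srebf1, its relative for fatty acid genes, stood at 31.0, 52.6 and 38.4 FPKM and, under TGF-β, at 32.2, 39.5 and 41.0. Only the pair 1 library without TGF-β was past 1.5-fold for Srebf1.

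Insig1, which is itself induced when sterols are scarce, stood at 23.4, 34.5 and 52.9 FPKM without TGF-β and at 12.9, 41.4 and 50.4 with it. With pair 2 under TGF-β its difference of 1.89 on the log2(FPKM + 1) scale was the largest of the 33 members. Insig2, its counterpart in holding back Scap, went the other way without TGF-β, from 17.8 FPKM in siNC to 0.587 and 0.614 of that level with the pairs, and its libraries lay close together with TGF-β, at 9.37, 8.61 and 11.3. Stard4, a carrier of cholesterol between membranes, stood at 12.2, 20.5 and 21.7 FPKM and, under TGF-β, at 8.42, 18.5 and 19.8. Scap stood at 22.9, 34.9 and 29.2 FPKM and, under TGF-β, at 24.7, 33.9 and 39.4.

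The fatty acid genes lay nearer to siNC than the sterol genes by their medians. Their median differences were 0.58 and 0.72 with pair 1 and 0.58 and 0.71 with pair 2, without and with TGF-β, beside 0.98, 1.14, 1.05 and 1.21 for the sterol genes. Scd1, the stearoyl-CoA desaturase that makes oleic acid, stood at 39.2, 74.5 and 56.8 FPKM without TGF-β and at 29.2, 84.7 and 48.1 with it. Pair 1 was above pair 2 for Scd1, by 0.80 on the log2(FPKM + 1) scale under TGF-β. Elovl6, which lengthens palmitic acid, showed the other order, with 12.1, 17.7 and 30.9 FPKM and, under TGF-β, 6.66, 12.2 and 18.7. Fads2, the first desaturase of polyunsaturated fatty acids, stood at 121, 230 and 214 FPKM and, under TGF-β, at 143, 227 and 291.

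Acly, which makes cytosolic acetyl-CoA from citrate, stood at 107, 173 and 158 FPKM without TGF-β and at 124, 183 and 203 with it. Acaca, which makes malonyl-CoA, stood at 7.80, 13.3 and 14.8 FPKM and, under TGF-β, at 6.91 and 13.6 in siNC and pair 1, with a ratio of 1.51 for pair 2. Fasn, the fatty acid synthase, was nearer to siNC with pair 2 (1.28- and 1.12-fold, without and with TGF-β) than with pair 1 (1.58- and 1.77-fold). Scd2, a desaturase and paralogue of Scd1, stood at 215, 290 and 322 FPKM and, under TGF-β, at 174, 379 and 293. How reads that such paralogues share were counted is not given in the sources used here. Fads1 lay 1.45- to 1.84-fold above siNC in the 4 knockdown libraries. Acss2, an acetyl-CoA synthetase, lay between 2.71 and 7.64 FPKM and was below siNC with pair 1 under TGF-β. Me1, the malic enzyme that supplies NADPH, stood at 25.5, 28.2 and 21.2 FPKM and, under TGF-β, at 25.5, 27.3 and 27.0, and was past 1.5-fold in none of the 4.

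The pairs were also set against each other directly. Without TGF-β, Fdft1, Tm7sf2, Insig1 and Elovl6 were past 1.5-fold higher with pair 2 than with pair 1, by 0.71, 0.63, 0.60 and 0.77 (log2), and no member was past 1.5-fold lower, beside 7.37% and 7.31% of all genes. Under TGF-β, Hmgcs1, Pmvk, Fasn and Scd1 were past 1.5-fold lower with pair 2, by 0.68, 0.59, 0.66 and 0.80 (log2), and no member was past 1.5-fold higher, beside 6.86% and 7.62% of all genes. With 1 library a condition, none of these differences has a replicate check.

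Marker genes of other cells differed too. The summed adipocyte markers were 11.3 and 8.48 FPKM in the siNC libraries, without and with TGF-β, and 2.33 to 4.10 FPKM in the knockdown libraries, the whole of it from Lipe and Fabp4, since Adipoq, Plin1, Cidec and Lep were listed at 0 in all 6. The summed fibroblast markers were 19.4 and 33.0 FPKM with pair 1, 7.11 and 10.4 with pair 2 and 4.42 and 9.51 with siNC, with Lum and Thy1 listed at 0. The summed leukocyte markers were 6.48 and 11.5 FPKM with siNC and 3.31 to 6.99 with the pairs, with Emr1 listed at 0. The endothelial markers summed to at most 2.01 FPKM, in the siNC library with TGF-β. Their part in the differences of the members was not tested. Depth relative to the siNC library without TGF-β lay between 1.24 and 1.38 in the knockdown libraries and at 1.74 in the siNC library with TGF-β.

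Most of these genes were lower in the siNC libraries than in untransfected EpRas cells, although the tables were scaled separately, so these levels carry no test. Without TGF-β, 12 of 17 sterol genes, 5 of 6 regulators and 9 of 10 fatty acid genes were below both untransfected libraries in siNC, beside 35.2% of all 8681 genes in both tables. Under TGF-β these were 13, 5 and 8, beside 30.5%. Above both untransfected libraries were 5 sterol genes, 1 regulator and 1 fatty acid gene without TGF-β, beside 44.1% of all genes. With TGF-β these were 2, 0 and 1, beside 41.7%. The 5 sterol genes were Tm7sf2, Hsd17b7, Ebp, Sc5d and Dhcr7, all from steps after Cyp51. The median differences from the mean of the untransfected libraries were -0.72, -0.52 and -0.49 (log2) without TGF-β and -0.63, -0.44 and -0.39 with it, and over all genes 0.04 and 0.05.

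The sterol genes of the knockdown libraries lay nearer to the untransfected cells or above them by their medians. With pair 1, 10 of 17 sterol genes were above both untransfected libraries without TGF-β and 15 with it, beside 45.0% and 41.7% of all genes. With pair 2 these were 15 and 16, beside 46.6% and 43.8%. The sterol medians were 0.21 and 0.37 (log2) for pair 1 and pair 2 without TGF-β and 0.61 and 0.78 with it. Of the 6 regulators, 4 with pair 1 and 3 with pair 2 were above both untransfected libraries without TGF-β and 3 and 5 with it, while 2 and 3 were below both without and 2 and 0 with it. Of the 10 fatty acid genes, 7 and 7 were above both without and 6 and 7 with TGF-β, and 2 were below both with either pair in either state. Of all genes, 26.9% and 30.2% were below both without and 24.6% and 20.0% with TGF-β, for pair 1 and pair 2. Insig2 without TGF-β went from 0.32 above the untransfected mean in siNC to -0.40 and -0.34 with the pairs, and Acss2 under TGF-β from -0.17 in siNC to -0.47 with pair 1 (log2). Srebf2 was 86.2 and 72.9 FPKM in the untransfected EpRas libraries and so lay between siNC at 36.6 and the pairs at 98.9 and 103. Insig1, at 76.2 and 55.7 FPKM in those libraries, was above siNC and above both pairs without TGF-β. The siNC libraries and the pairs are in 1 table, so the scaling between the tables bears on their levels against untransfected cells and not on the difference between them. Whether that difference lies in the control transfection or in the knockdown cannot be told apart.

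**Figure D2:**
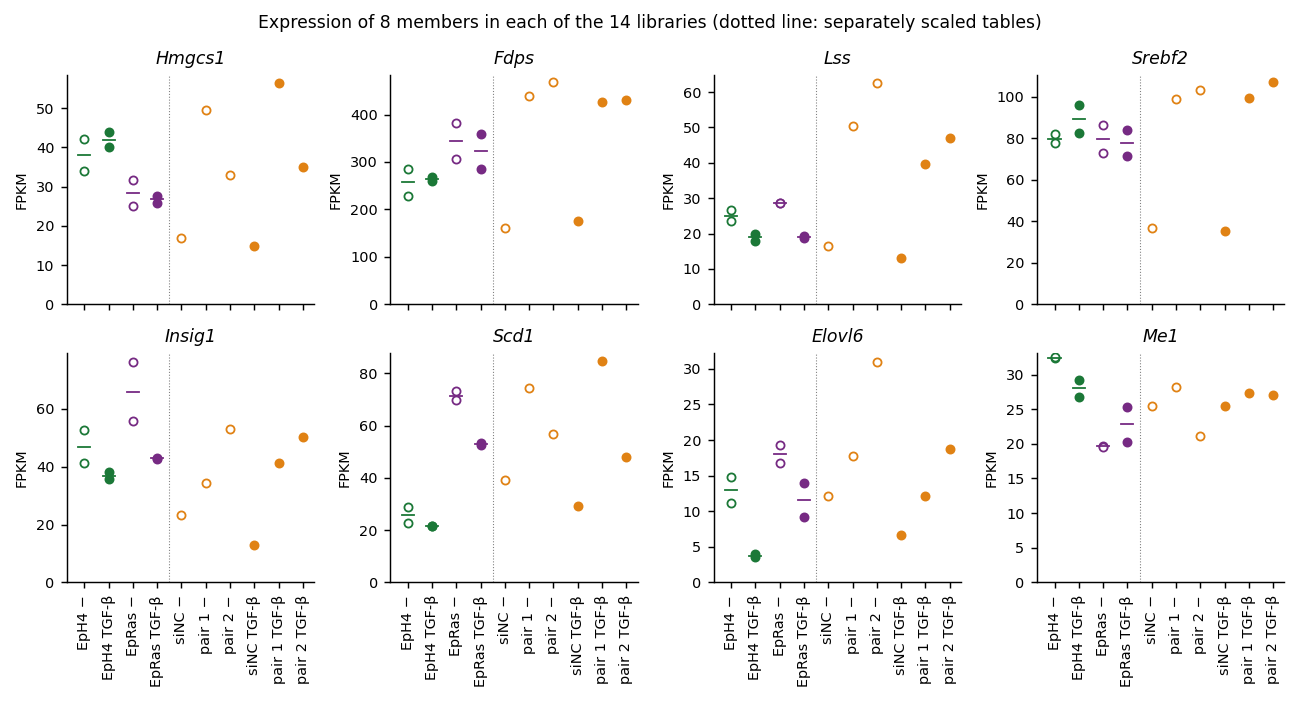
FPKM of 8 members in each of the 14 libraries on linear axes from 0, where points are libraries (filled with TGF-β), short lines are means of 2 untransfected libraries, and a dotted line parts the separately scaled tables. Srebf2, Fdps, Hmgcs1 and Lss are low in both siNC libraries, at 36.6, 160, 16.8 and 16.6 FPKM without TGF-β.

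The untransfected lines were then compared, which asks how the members differ between the H-Ras-transformed line and its parent line, each in its own serum level. Scd1, a fatty acid desaturase, and Acat2, of the first sterol step, were higher in EpRas cells both without and with TGF-β. Without TGF-β, 4 of the 32 members that reached 5 FPKM were higher in EpRas cells than in EpH4 cells and 1 was lower at an adjusted p under 0.05 by limma, beside 8.45% and 9.11% of all 9100 genes tested. Acss2 did not reach 5 FPKM and was not tested, and is listed at 1.75 and 0.811 FPKM in EpH4 and 4.67 and 4.80 in EpRas cells. The median estimates were 0.29 (log2) for the sterol genes, 0.09 for the regulators and 0.46 for the fatty acid genes, beside 0.00 over all genes. Without adjustment, 10 members had a p under 0.05, beside 32.6% of all genes, so the counts of members called lay near those of all genes.

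Scd1 (chr19:44394450-44407709) was 28.7 and 22.8 FPKM in EpH4 and 69.9 and 73.1 FPKM in EpRas cells. Both EpRas libraries were over 2-fold above both EpH4 libraries, a difference of 1.44 ± 0.16 (log2, SE, adjusted p = 0.00117). Scd2 was 155 and 168 FPKM in EpH4 and 305 and 293 in EpRas cells (0.88 ± 0.15, adjusted p = 0.00712), again with no overlap. Acat2 was 23.3 and 19.8 FPKM in EpH4 and 41.1 and 41.4 in EpRas cells (0.91 ± 0.15, adjusted p = 0.00703). These 3 calls held when any of the 8 libraries was left out.

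Stard4 was 9.79 and 11.6 FPKM in EpH4 and 20.4 and 16.6 in EpRas cells (0.73 ± 0.20, adjusted p = 0.0471). Its call is weak, since the adjusted p by limma was 0.190 and 0.106 without EpH4 replicate 1 or 2, 0.217 and 0.0924 without EpRas replicate 1 or 2, and 0.0774 without either EpH4 library with TGF-β. It was 0.0543 to 0.0730 in 5 of the 7 other alternatives, the replicate block among them. Me1 went the other way, at 32.4 and 32.5 FPKM in EpH4 and 19.7 and 19.6 in EpRas cells (-0.70 ± 0.16, adjusted p = 0.0236). For Me1 the adjusted p by limma was 0.0939 to 0.102 without any 1 of the 4 untreated libraries (EpH4 replicate 1 or 2, EpRas replicate 1 or 2), and 0.0580 without either EpH4 library with TGF-β, while the estimate stayed at -0.70.

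With TGF-β, 4 members were higher in EpRas than in EpH4 cells and 1 was lower, beside 8.92% and 12.3% of all genes, and 10 had an unadjusted p under 0.05, beside 35.8% of all genes. Scd1 was 21.4 and 21.7 FPKM in EpH4 and 52.6 and 53.4 in EpRas cells (1.26 ± 0.16, adjusted p = 0.00157). Acat2 was 16.7 and 18.4 FPKM in EpH4 and 37.2 and 34.5 in EpRas cells (0.99 ± 0.15, adjusted p = 0.00389). The lines did not overlap in either gene, and both calls held without any single library.

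Elovl6 (chr3:129532386-129638493) was 3.53 and 4.03 FPKM in EpH4 and 13.9 and 9.15 in EpRas cells under TGF-β (1.36 ± 0.23, adjusted p = 0.00571), and the adjusted p by limma was 0.0565 without EpH4 replicate 1 with TGF-β. Dhcr7 was 20.1 and 23.8 FPKM in EpH4 and 38.3 and 32.8 in EpRas cells (0.67 ± 0.16, adjusted p = 0.0256), and without EpH4 replicate 1 or 2 or EpRas replicate 1 with TGF-β the adjusted p by limma was 0.189, 0.0751 and 0.0780. For Dhcr7 it was also 0.0548 with a replicate block and 0.0767 with only the 2 groups compared. Hmgcs1 was lower in EpRas cells, at 40.0 and 43.8 FPKM in EpH4 and 27.7 and 25.8 in EpRas cells (-0.63 ± 0.18, adjusted p = 0.0467). That call was lost without any 1 of the 8 libraries, with an adjusted p by limma of 0.0522 to 0.224, and in 5 of the 7 other alternatives, with 0.0523 to 0.0887.

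Cell type markers differed between the lines too. Of the 6 epithelial markers, limma called Krt19 higher and Cdh1 and Cldn4 lower in EpRas cells without TGF-β, and with it the same 3 and Epcam, which was lower. Cdh1, which encodes E-cadherin, was 49.1 and 53.2 FPKM in EpH4 and 24.4 and 27.4 in EpRas cells, and with TGF-β 93.7 and 85.0 against 20.6 and 18.2. The fibroblast markers Col1a1 and Col1a2 were lower in EpRas cells in both states. Pdgfra stayed below 5 FPKM, was not tested and was higher in EpRas cells. It was 0.668 and 0.986 FPKM in EpH4 and 2.33 and 3.16 in EpRas cells. With TGF-β it was 2.27 and 2.07 against 2.90 and 2.57. Fabp4 was lower in EpRas cells without TGF-β (adjusted p = 0.0477 by limma) and Csf1r with it (adjusted p = 0.000763 by limma). Lipe was higher without TGF-β (3.56 to 5.55 FPKM, group means) and Cd68 with it (1.52 to 5.62). Neither was called (adjusted p = 0.148 and 0.0549 by limma). The summed adipocyte markers were 9.59 to 11.5 FPKM in EpH4 and 5.59 to 8.40 in EpRas cells, and with TGF-β 4.11 to 4.56 and 3.15 to 3.95, with Plin1, Cidec and Lep listed at 0. The summed leukocyte markers reached at most 2.09 FPKM in EpH4 and 5.21 in EpRas cells without TGF-β, and with it were 6.52 to 8.49 and 5.64 to 8.27, with Ptprc, Emr1 and Itgam listed at 0. With TGF-β in EpH4 cells, Cdh1, Col1a1, Col1a2 and Csf1r rose by limma, Csf1r from a mean of 0.144 to 5.99 FPKM. The part of these markers in the member values was not tested.

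**Figure D3:**
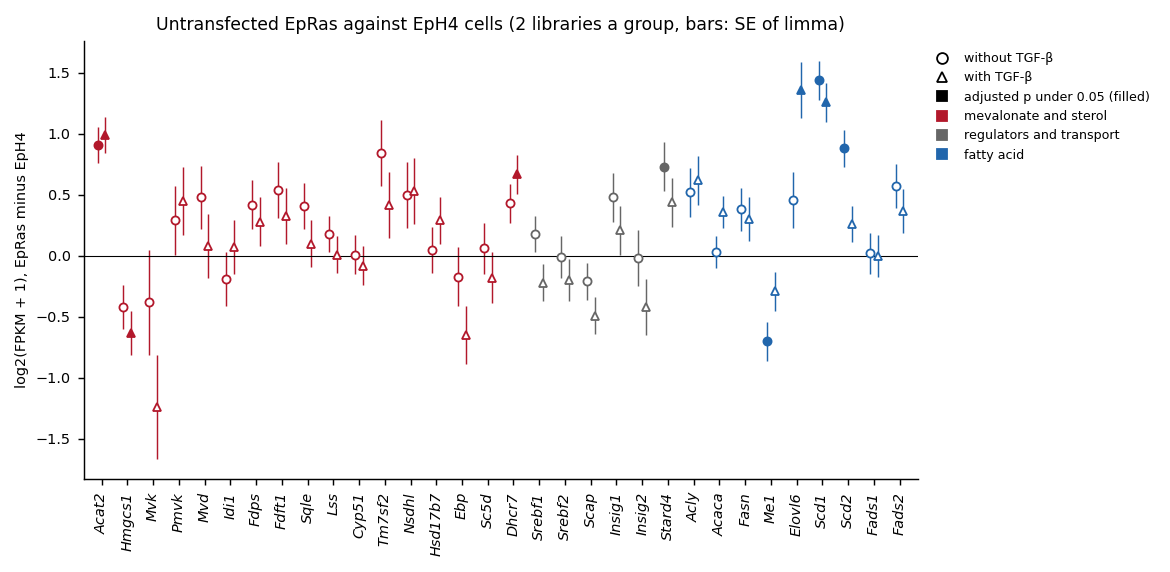
Difference of log2(FPKM + 1) between untransfected EpRas and EpH4 cells for the 32 members tested, as the limma estimate with its SE from 2 libraries a group, filled where the adjusted p is under 0.05. Scd1 stands at 1.44 without and 1.26 with TGF-β, and Me1 at -0.70 and -0.29.

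Mvk and Pmvk had wide spreads between replicates. Mvk was 79.0 and 78.4 FPKM in EpH4 and 83.4 and 43.4 in EpRas cells, and with TGF-β 99.2 and 94.5 against 26.0 and 62.9. Its EpRas libraries differed between replicates more than those of any other member, and neither comparison passed the test (adjusted p = 0.0816 by limma with TGF-β). Pmvk was the member with the widest replicate spread in untreated EpH4 cells, at 50.7 and 93.7 FPKM. Fdps was 286 and 228 FPKM in EpH4 and 307 and 383 in EpRas cells, and Sqle 76.0 and 79.0 against 119 and 89.2, and neither passed the test. Cyp51, Fads1, Srebf2 and Insig2 had estimates of 0.01, 0.02, -0.01 and -0.02 (log2) without TGF-β, with 95% intervals of -0.36 to 0.38 for Cyp51, -0.38 to 0.43 for Fads1, -0.40 to 0.39 for Srebf2 and -0.57 to 0.52 for Insig2.

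The response to TGF-β after 48 h was then compared within each line. In EpH4 cells, 0 of 32 members rose and 1 fell, beside 6.48% and 2.91% of all genes, and 6 had an unadjusted p under 0.05, beside 23.9%. That member was Elovl6, from 14.8 and 11.1 FPKM to 3.53 and 4.03 (-1.53 ± 0.23, adjusted p = 0.00746). The groups did not overlap, but the adjusted p by limma was 0.0562 without untreated EpH4 replicate 1 and 0.0825 and 0.0584 without EpH4 replicate 1 or 2 with TGF-β. Acaca was 9.39 and 9.78 FPKM without and 6.41 and 6.27 with TGF-β and just missed the threshold (-0.53 ± 0.13, adjusted p = 0.0530 by limma). Lss, at 26.6 and 23.4 FPKM without and 20.0 and 18.0 with TGF-β, had an adjusted p of 0.170 by limma. Of the regulators, Srebf1 was 39.0 and 37.5 FPKM without and 54.1 and 46.0 with TGF-β (adjusted p = 0.192 by limma).

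In EpRas cells, limma called 0 of 32 members at an adjusted p under 0.05, beside 3.82% of all genes in either direction, while 8 had an unadjusted p under 0.05, beside 15.8%. All 8 estimates were negative, as were 25 of the 32, beside 52.2% of all genes, with a median of -0.21 (log2) beside -0.02 over all genes. Lss was 28.5 and 28.5 FPKM without and 19.4 and 18.8 FPKM with TGF-β (-0.55 ± 0.15, adjusted p = 0.104 by limma). Insig1 was 76.2 and 55.7 FPKM without and 42.8 and 42.9 with TGF-β, and Stard4 20.4 and 16.6 without and 10.6 and 13.7 with it. The TGF-β libraries lay below the untreated ones for these 3 genes without overlap, and Insig1 and Stard4 had adjusted p-values of 0.203 and 0.226 by limma. The same lack of overlap held among the tested members for Ebp, Insig2, Elovl6, Sqle, Pmvk, Acat2, Idi1, Acaca, Fasn, Scd1 and Scd2. The share of all genes without overlap was not counted, so nothing is read from it. Ebp was 20.7 and 22.2 FPKM without and 15.3 and 10.1 with TGF-β, Insig2 15.0 and 13.2 without and 10.8 and 6.30 with it, and Elovl6 16.8 and 19.3 without and 13.9 and 9.15 with it.

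**Figure D4:**
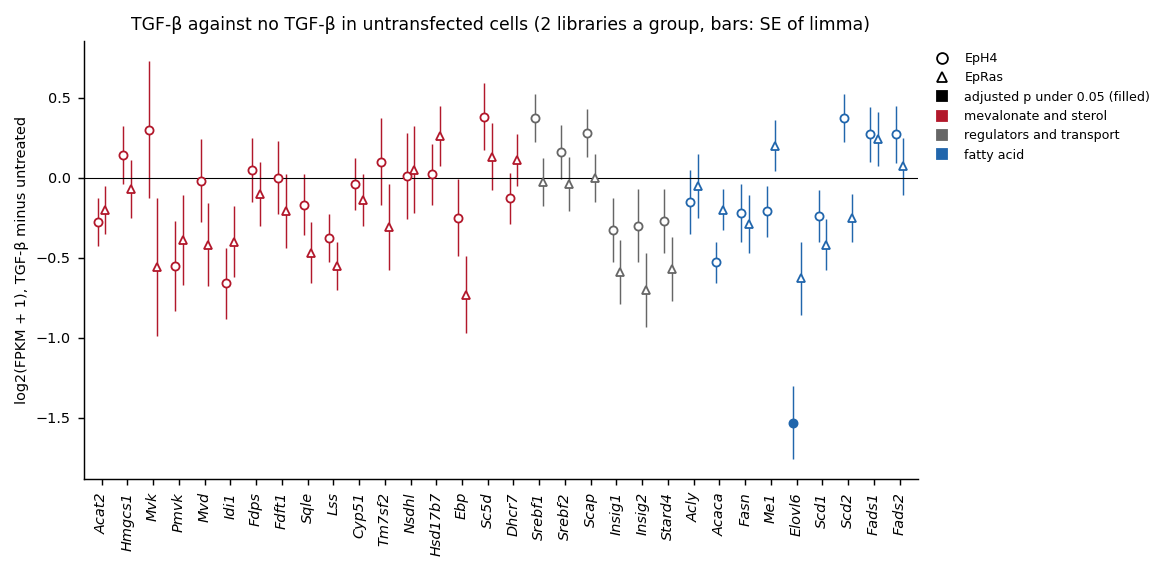
Difference of log2(FPKM + 1) between untransfected cells with and without TGF-β for the 32 members tested, as the limma estimate with its SE from 2 libraries a group, filled where the adjusted p is under 0.05. Elovl6 at -1.53 in EpH4 cells is the filled point, and the regulators of EpRas cells lie between -0.70 and 0.00.

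The difference between the lines in their response was tested as an interaction. None of the 32 members passed by limma, beside 0.802% of all genes, and 2 had an unadjusted p under 0.05 (10.9% of all genes), Scd2 and Elovl6 (estimates of -0.62 ± 0.21 and 0.90 ± 0.33, log2). Elovl6 thus fell in EpH4 cells by the test and not in EpRas cells, but the difference between these effects had an adjusted p of 0.364 by limma.

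In the transfected cells, TGF-β was set against no TGF-β under each siRNA. In siNC, 24 of 33 members were lower with TGF-β than without, with a median of -0.17 (log2), and the largest was -0.86 for Insig2. With pair 1, 14 were lower and 19 higher (median 0.03), and with pair 2, 17 were lower and 16 higher (median -0.02), beside medians of 0.00 to 0.02 over all genes. The sterol genes alone had medians of -0.23, 0.10 and -0.02 in siNC, pair 1 and pair 2. The counts of lower and higher members were not set beside a share of all genes, so nothing is read from them. Elovl6 was lower with TGF-β under each siRNA, at 12.1 and 6.66 FPKM in siNC, 17.7 and 12.2 with pair 1 and 30.9 and 18.7 with pair 2. Over the 3 siRNA conditions limma called 0 of 33 members, beside 4.17% of all genes, with 4 at an unadjusted p under 0.05 (21.9% of all genes), and Elovl6 had the smallest adjusted p (0.0629).

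Other genes of the same pathways were counted from a list that holds no member. Of 18 genes around sterol use and control, such as Soat1, Abca1 and Mbtps1, 11 were tested in the untransfected cells and 10 in the transfected cells, and limma called 0 of them in any comparison of line or TGF-β. Of all genes, limma called 8.45% higher and 9.11% lower between the lines without TGF-β, and 8.92% and 12.3% with it. For TGF-β it called 6.48% higher and 2.91% lower in EpH4 cells and 3.82% in either direction in EpRas cells. These shares were 0.802% for the interaction and 4.17% for TGF-β over the siRNA conditions. With so few genes tested, nothing is read from the 0 calls. At an unadjusted p under 0.05 the tested genes of this list gave 3 between the lines without TGF-β and 1 with it. For TGF-β they gave 3 in EpH4 and 0 in EpRas cells, 2 for the interaction and 1 over the siRNA conditions. The shares of all genes in that order were 32.6%, 35.8%, 23.9%, 15.8%, 10.9% and 21.9%. Of 26 genes around fatty acid use, 20 were tested in the untransfected and 19 in the transfected cells, and between the lines without TGF-β 3 were higher and 2 lower in EpRas cells, beside 8.45% and 9.11% of all genes, with 10 at an unadjusted p under 0.05, beside 32.6%. The higher ones were Lpin1, a phosphatidate phosphatase (1.89 to 6.53 FPKM, group means, 1.38 log2), Cpt1a, which carries fatty acids into mitochondria (11.7 to 31.8, 1.39 log2), and Slc25a1, the citrate carrier (75.9 to 127, 0.74 log2). The lower ones were Dgat2, which makes triglyceride (6.17 to 1.71, -1.42 log2), and Mid1ip1, a helper of acetyl-CoA carboxylase (39.2 to 19.4, -0.98 log2). With TGF-β 4 were higher and 2 lower, beside 8.92% and 12.3%. TGF-β raised 1 in EpH4 cells (Acsl4, 9.51 to 18.3 FPKM), beside 6.48%. Limma called 0 for TGF-β in EpRas cells and 0 over the siRNA conditions, where 2 and 6 had an unadjusted p under 0.05, beside 15.8% and 21.9% of all genes.

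The labelled cell type was checked against its markers. All 6 epithelial markers searched for were present in EpRas cells, with summed levels of 1655 to 4570 FPKM over both tables, and in EpH4 cells Krt19 was listed at 0 and the other 5 summed to 2545 to 4400 FPKM. Replicate libraries correlated at r = 0.964, 0.982, 0.957 and 0.912 over all genes tested, for EpH4 cells without and with TGF-β and EpRas cells without and with TGF-β, and the median SD of the members between replicates was 0.124 (log2). In EpH4 cells the summed fibroblast markers went from 21.7 to 25.8 FPKM without to 214 to 239 with TGF-β. In untransfected EpRas cells they stayed between 4.61 and 5.76, and the transfected libraries are given above. The part of the fibroblast markers in the member values was not tested. Sequencing depth is not given in the sources used here, and the depth read from the lowest FPKM steps, relative to EpH4 replicate 1 without TGF-β, ranged from 0.610 to 1.36.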

How the data were processed

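The authors aligned Ion Proton reads of oligo(dT)-selected mRNA to mm10 with TopHat2 2.0.11 (Bowtie2 2.2.2.2) and deposited FPKM with 95% intervals from Cuffdiff (Cufflinks 2.2.0), per the labels and the study's methods. Transfected and untransfected libraries were processed independently, so tests stayed within a table, and any scaling by Cuffdiff is in the values. No per-sample column was left unused (0). Genes without OK status (3 and 2) were left out, and those reaching 5 FPKM in any library were tested on log2(FPKM + 1), on which scale fold changes of low genes are understated, with limma 3.58.1 (R 4.3.3) and Benjamini-Hochberg adjustment over all genes tested at 0.05. The 4 untransfected groups shared 1 fit. The siRNA model had 2 residual degrees of freedom, with conditions in place of replicates, and its calls for the pairs are not given as results, since those contrasts were taken as used for the choice. The code was tested on simulated data. Members, lists and tests were chosen with earlier results of these data known, and all 33 members are accounted for. The alternatives were pseudocounts of 0.1 and 5, other filters, a common median, a replicate block, only the groups compared, a fold of 2, and each library left out. The deposited positions of all 33 members overlap the annotation used.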

Additional observations from a re-analysis of the deposited data

Results flagged for a closer look

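For 2 members, both EpH4 libraries with TGF-β lay on 1 side of both untreated EpH4 libraries while both EpRas libraries with TGF-β lay on the opposite side of the untreated EpRas libraries. The share of all genes with this pattern was not counted, so nothing is read from the number of members. Scd2 was 155 and 168 FPKM without and 205 and 212 with TGF-β in EpH4 cells, and 305 and 293 without and 269 and 234 with TGF-β in EpRas cells. The effect in EpRas minus that in EpH4 cells was -0.62 (log2), and the interaction did not pass by limma (adjusted p = 0.335). Me1 was 32.4 and 32.5 FPKM without and 29.2 and 26.8 with TGF-β in EpH4 cells, and 19.7 and 19.6 without and 25.3 and 20.3 with TGF-β in EpRas cells. Its effect in EpRas minus that in EpH4 cells was 0.40 (log2, adjusted p = 0.562 by limma).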

How the results depend on the processing

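Leaving out each library in turn moved the count of members called from 5 to between 3 and 7 for EpRas against EpH4 cells without TGF-β, from 5 to between 2 and 7 with TGF-β, from 1 to between 0 and 3 for TGF-β in EpH4 cells, and from 0 to between 0 and 1 for TGF-β in EpRas cells (Insig2, without EpRas replicate 1 with TGF-β). For the lines with TGF-β, the count was 8 with no filter, 3 with a replicate block and 3 with only the 2 groups compared. For TGF-β in EpH4 cells it was 2 with a pseudocount of 0.1, 2 with no filter and 2 with a common median. Calls of the siRNA model for the pairs are not listed here, since those contrasts were taken as used for choosing the members and so are no test of them. With a fold of 2, 9 members (pair 1) and 12 (pair 2) were past it without TGF-β, in place of 20 each in either direction, beside 7.90% and 8.67% of all genes, and 16 and 17 with TGF-β, in place of 24 and 25, beside 8.91% and 6.86%. The effect of TGF-β on Mvk in EpRas cells ranged from -1.18 to 0.06 (log2) when a library was left out, the latter without EpRas replicate 1 with TGF-β. The causes were not tested. Of 949 single-gene alternatives over 174 results, 830 kept the side of the threshold or moved by less than 1 SD, 51 lost it, 19 gained it, 48 moved by more than 1 SD and 1 turned direction. Replicate numbers are not stated to pair libraries, and deviations of same-numbered libraries correlated at -0.347 to 0.0785 over 6 pairs of groups. With that block the counts were 4 and 3 for the lines without and with TGF-β, 1 and 0 for TGF-β in EpH4 and EpRas cells and 0 for the interaction.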
